A study of Mus musculus with 6 samples.

Results

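The genes described here are 8 transcription factor genes of the B lineage, Ebf1, Pax5, Bach2, Foxo1, Ikzf1, Ikzf3, Pou2af1 and Spib. They were chosen by symbol from a table of read counts, all 8 were found there, and they are 8 of the 16190 genes with enough counts to be tested. RNA sequencing had been run on 6 libraries labelled as bone marrow mesenchymal stromal cells of mice in a C57BL/6 background, 3 from Hes1 knockout mice (Hes1 KO) and 3 from wildtype mice (WT). Hes1 encodes a repressor downstream of Notch, and the labels describe a cross of mice with a floxed Hes1 allele to mice with Prx1Cre. In these the Prx1 promoter drives Cre in early limb bud mesenchyme and part of the craniofacial mesenchyme, and the labels name no blood cells among those with Cre. The same protocol text, which names heterozygous Hes1fl/+ mice, stands with every library of both groups, and how many alleles were deleted is not stated there. Nor do the labels state the age of the mice or whether each library had its own mouse, and p-values here reflect library spread that may be technical.

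B cells form in the marrow through a hierarchy of transcription factors. Ikaros, the product of Ikzf1, acts early and in most blood cells. Ebf1 and Foxo1 then activate each other's genes and the early B cell programme, and Ebf1 induces Pax5, which holds cells in the B lineage. Aiolos (Ikzf3), Bach2, the coactivator OBF-1 (Pou2af1) and Spi-B (Spib) act at later pre-B and mature B cell steps. Ebf1 is also known in marrow stromal cells, Spib in plasmacytoid dendritic cells, and Bach2, Ikzf3 and Foxo1 in T cells.

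Replicates 1 to 3 are called KO1, KO2 and KO3 for Hes1 KO (the knockouts) and WT1, WT2 and WT3 for WT. The knockouts held 20563116 to 22131465 counts, WT2 held 5812598 and WT3 held 12109170. WT1 held only 66167, so 1 count there is worth 15.1 CPM (counts per 1000000 of the library's total), and its values are given apart. The deleted gene Hes1 was at 8.36, 10.4 and 12.4 CPM in the knockouts and at 53.3 and 28.5 CPM in WT2 and WT3, with 0 counts in WT1. The labelled cell type was not borne out by its markers, as Prrx1, the source of the Cre promoter, had 0 to 2 counts in every library. The 12 marrow stromal markers summed to 31.1 to 71.7 CPM in the knockouts and to 30.2, 76.6 and 5.12 CPM in WT1, WT2 and WT3. The 10 erythroid markers summed to 425259 CPM in WT3 and to at most 3188 CPM elsewhere, and scaling by trimmed means (TMM) gave that library a factor of 0.445 and the other 4 deep libraries 1.05 to 1.37. The part of erythroid RNA in the results was not tested. Libraries also differed in the Y-linked gene Ddx3y. It was at 1.27, 61.9 and 0.146 CPM in the knockouts and at 0, 205 and 42.2 CPM in WT1, WT2 and WT3. The X-linked gene Xist was at 1221, 11.01 and 1004 CPM in the knockouts and at 2055, 3.10 and 71.9 CPM in WT. Fits without WT1, given below, thus hold no WT library with Xist near the 1221 and 1004 CPM of KO1 and KO3. The part of sex in the results was not tested.

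Without WT1, 6 of the 8 genes fell in the knockouts and none rose (quasi-likelihood test of edgeR, p-values adjusted by Benjamini and Hochberg, BH, over 16190 genes, threshold 0.05). Ebf1, Pax5, Bach2, Foxo1, Ikzf3 and Spib passed, while Pou2af1 and Ikzf1 did not. Of all tested genes 8.09% fell and 7.44% rose in that comparison of 3 knockout with 2 WT libraries. The median log2 fold change of the 8 genes was -2.28, against 0.02 for all genes tested. On the TMM scale every knockout was below WT2 and WT3 for all 8 genes, as for 24.5% of all genes, and by CPM of the library totals for 7 of the 8, as for 7.54% of all genes. With all 6 libraries 0 of the 8 passed, as did 0% of all 14756 genes tested, and the median of the 8 was -1.78 against 0.03. In that fit 2 of the 8 genes, Ebf1 and Bach2, had an unadjusted p under 0.05, as had 14.9% of all genes. DESeq2 called these same 2 of the 8 and 832 of 26740 genes in all, 618 of them lower in the knockouts. With limma-voom 0 of the 8 and 0 of all 14756 genes were called. The 6 calls also rest on each Hes1 KO library and on the scaling. Leaving out KO1, KO2 or KO3 left 0 of the 8 and 0 of all genes called, and so did scaling by library totals, although each of the 8 fold changes stayed negative in those fits.

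**Figure D1:**
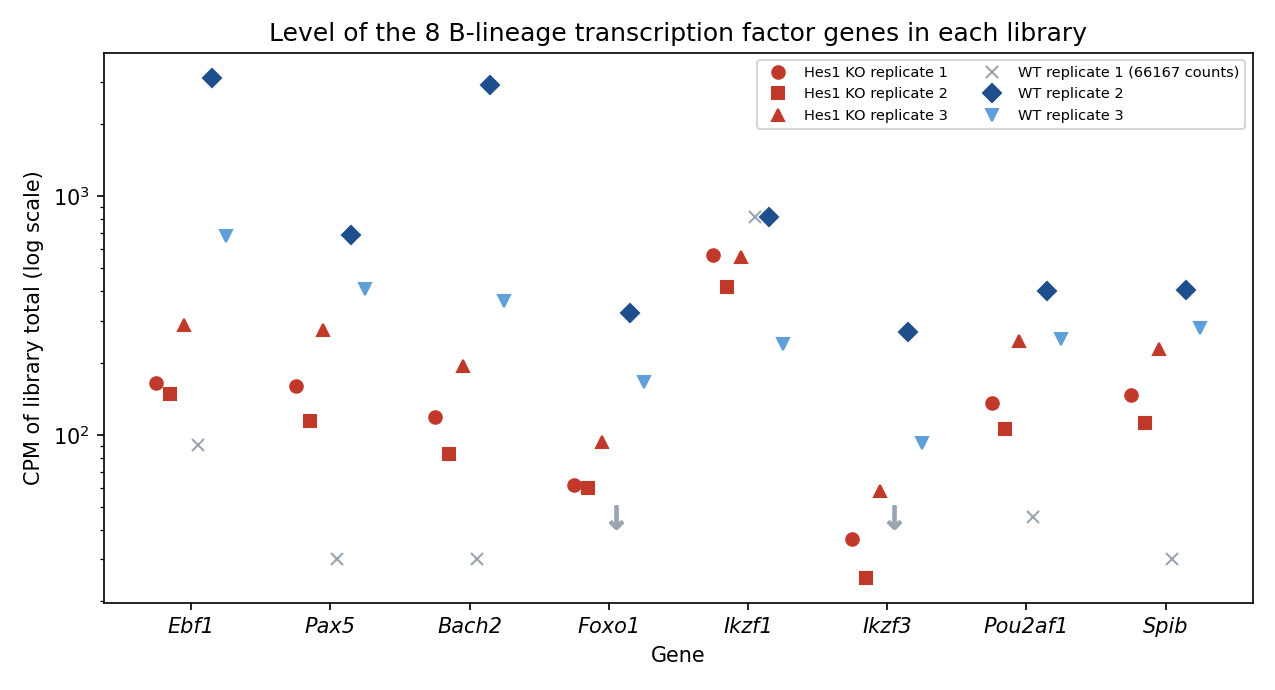
Level of each of the 8 genes in every library, as CPM of the library's total on a log axis, with Hes1 KO in red and WT in blue or grey. Arrows mark 0 counts in WT replicate 1, drawn at the 45.3 CPM that 3 counts would give. WT replicates 2 and 3 lie above all Hes1 KO libraries for every gene except Ikzf1.

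Ebf1, the pioneer factor that opens the B cell programme, was at 165, 148 and 288 CPM in KO1, KO2 and KO3 and at 3130 and 683 CPM in WT2 and WT3. The groups did not overlap, and WT2 stood far above WT3 by library totals. After TMM scaling that gap was smaller, at 2301 and 1537 TMM-scaled CPM in WT2 and WT3. Without WT1, Ebf1 fell by 3.51 (log2, SE 0.47, edgeR, BH-adjusted p = 0.0294) and was thus 11.4-fold lower in the knockouts. In WT1 the 6 counts of Ebf1 make 90.7 CPM (Wilson 95% interval 41.6 to 198), which lies below both other WT libraries and below the lowest Hes1 KO value, with an interval that reaches into the Hes1 KO range. In the fit of all 6 libraries Ebf1 had a log2 fold change of -3.01 (SE 1.14, edgeR, BH-adjusted p = 0.317).

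Pax5, the factor that commits cells to the B lineage, was at 160, 114 and 274 CPM in the knockouts and at 687 and 407 CPM in WT2 and WT3. These groups were apart too, with KO3 nearest to WT. Pax5 fell by 2.22 (log2, SE 0.44, edgeR, BH-adjusted p = 0.0356). The 2 counts in WT1 make 30.2 CPM (Wilson 95% interval 8.29 to 110), below every other library. Foxo1, a forkhead factor that drives Rag gene and Il7r transcription, was at 61.5, 60.0 and 93.6 CPM in the knockouts and at 324 and 167 CPM in WT2 and WT3. The groups were apart. Foxo1 fell by 2.34 (log2, SE 0.31, edgeR, BH-adjusted p = 0.0294). In WT1 Foxo1 had 0 counts, which allows up to 45.3 CPM (3 counts, counting error only).

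Bach2, a repressor that delays plasma cell differentiation and acts at the pre-B checkpoint, was at 118, 82.8 and 195 CPM in the knockouts and at 2938 and 365 CPM in WT2 and WT3. By library totals it had the largest gap between those WT libraries of the 8 genes, 8.05-fold. After TMM scaling it was at 2160 and 822 TMM-scaled CPM in WT2 and WT3. Bach2 fell by 3.76 (log2, SE 0.57, edgeR, BH-adjusted p = 0.03002), the largest fall of the 8, and was 13.6-fold lower. WT1 had 2 counts of it (30.2 CPM). Bach2os, a gene on the opposite strand within Bach2, had 25, 7 and 25 counts in the knockouts and 207 and 38 in WT2 and WT3. It fell by 4.49 (log2, SE 0.73, edgeR, BH-adjusted p = 0.0303). No source used here states how strand was treated in counting, so reads of Bach2 and Bach2os cannot be told apart.

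The Ikaros family members differed from each other. Ikzf3 (Aiolos), which restrains pre-B cell growth, was at 36.5, 25.2 and 58.3 CPM in the knockouts and at 269 and 92.5 CPM in WT2 and WT3, with 0 counts in WT1. It fell by 2.61 (log2, SE 0.32, edgeR, BH-adjusted p = 0.0294). Ikzf1 (Ikaros) was at 569, 416 and 556 CPM in Hes1 KO, at 814 CPM in WT2 and at 240 CPM in WT3. The Hes1 KO values thus lay between those of the WT libraries. WT1 had 54 counts of Ikzf1, or 816 CPM (Wilson 95% interval 626 to 1065), which made it the best measured of the 8 genes there and close to WT2. After TMM scaling all Hes1 KO libraries were below WT2 and WT3 (395 to 451 against 541 to 598 TMM-scaled CPM), and the log2 fold change of Ikzf1 was -0.40 (SE 0.28, edgeR, BH-adjusted p = 0.328). With all 6 libraries it was -0.36 (SE 0.42, edgeR, BH-adjusted p = 0.699).

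Pou2af1, whose product OBF-1 joins octamer-binding factors at immunoglobulin promoters, was at 136, 105 and 248 CPM in the knockouts and at 399 and 253 CPM in WT2 and WT3. KO3 came close to WT3. The log2 fold change of Pou2af1 was -1.66 (SE 0.44, edgeR, BH-adjusted p = 0.0565), which missed the threshold. It depended on the WT library, at -2.05 against WT3 alone (SE 0.41, edgeR, BH-adjusted p = 0.0175) and at -1.08 against WT2 alone (SE 0.39, edgeR, BH-adjusted p = 0.0762), in fits that assume a lone WT library to vary like the knockouts. Spib, an Ets factor related to PU.1, had values much like these, with 146, 112 and 230 CPM in the knockouts and 402 and 281 CPM in WT2 and WT3. It fell by 1.77 (log2, SE 0.42, edgeR, BH-adjusted p = 0.0471), and by 2.21 against WT3 alone and 1.09 against WT2 alone in the same kind of fit. That call was lost with no filter on low counts (log2 fold change -1.61), with limma-voom (-1.73) and with edgeR's default dispersion option (-1.77). WT1 had 3 counts of Pou2af1 (45.3 CPM) and 2 of Spib (30.2 CPM), below every other library.

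The promoters of genes that fell and of 1 that did not are shown because the deleted gene encodes a DNA-binding repressor. The windows run from 250 bases before to 50 after a RefSeq start on GRCm38.p6, which is not the GRCm39 build of the counts, and 7 of the 8 genes matched (Ikzf3 did not). They are given 5′ to 3′ on the gene's strand, with every motif match in capitals, for Bach2 (chr4:32417185-32417484, plus strand), Pax5 (chr4:44710645-44710944, minus strand) and the upstream start of Ikzf1 (chr11:11685675-11685974, plus strand).
Bach2: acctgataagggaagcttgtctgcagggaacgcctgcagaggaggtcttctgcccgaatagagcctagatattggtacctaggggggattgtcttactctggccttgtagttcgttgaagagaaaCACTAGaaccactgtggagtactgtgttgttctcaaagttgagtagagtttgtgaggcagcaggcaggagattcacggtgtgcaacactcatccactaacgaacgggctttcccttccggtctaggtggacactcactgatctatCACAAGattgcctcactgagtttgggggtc
Pax5: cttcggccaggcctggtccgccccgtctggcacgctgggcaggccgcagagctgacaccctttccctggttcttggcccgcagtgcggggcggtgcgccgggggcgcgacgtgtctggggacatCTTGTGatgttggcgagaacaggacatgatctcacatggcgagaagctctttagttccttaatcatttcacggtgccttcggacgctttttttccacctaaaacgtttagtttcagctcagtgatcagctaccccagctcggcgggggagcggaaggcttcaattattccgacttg
Ikzf1: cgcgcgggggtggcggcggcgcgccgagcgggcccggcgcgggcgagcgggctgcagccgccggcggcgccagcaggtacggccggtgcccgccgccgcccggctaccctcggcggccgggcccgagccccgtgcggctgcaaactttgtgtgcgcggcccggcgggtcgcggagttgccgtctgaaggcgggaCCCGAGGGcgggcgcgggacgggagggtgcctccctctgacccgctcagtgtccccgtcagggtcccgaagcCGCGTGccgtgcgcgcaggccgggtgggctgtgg
The 9 motifs searched, on both strands, were the HES1 class C site CACGCG, the HES1 N-box CACNAG, the EBF1 core CCCNNGGG, the E2A E-box CAGGTG, the octamer ATGCAAAT, the PU.1 and SPIB site GAGGAAGT, the FOXO site TGTTTAC, the BACH2 and AP-1 site TGAGTCA and the IKAROS site TGGGAA. No match of one motif overlapped a match of another in the windows shown. The N-box letters occurred at positions 126 and 271 of the Bach2 window and, on the opposite strand, at position 125 of the Pax5 window, counted from the first base, and in 42.5% of all 32851 promoter windows. The class C letters occurred in the Ikzf1 window at position 267, on the opposite strand, and in 9.27% of all windows. The EBF1 core was in windows of 3 of the 8 genes (Foxo1, Ikzf1 and Spib) and in 13.7% of all. The IKAROS letters were in a window of Ebf1 and in 25.6% of all. The E-box, octamer, PU.1, FOXO and AP-1 letters were in none of the 9 windows of these genes. Such matches describe letters and not binding.

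The order of the 8 genes differed between libraries. As CPM per kb of exon (RPKM, exons from GENCODE M21), Ikzf1 had the highest mean in Hes1 KO at 89.0 ± 14.7 RPKM (SD, n = 3), although Pou2af1 (97.4 RPKM) was above Ikzf1 (96.3 RPKM) in KO3. Pou2af1 at 64.1 ± 29.5 and Spib at 56.7 ± 21.1 RPKM followed (SD, n = 3), and neighbours in that order were within their spread. Pax5 at 20.6 ± 9.29 and Ebf1 at 20.6 ± 7.80 RPKM came next, then Bach2 at 13.3 ± 5.77 RPKM, and neighbours in this stretch also differed by less than their spread (SD, n = 3). Foxo1 at 8.27 ± 2.19 RPKM was within that spread of Bach2, and Ikzf3 at 4.57 ± 1.92 RPKM was lowest, below Foxo1 by more than either SD (SD, n = 3). In WT2 Ebf1 (321 RPKM) and Bach2 (296 RPKM) were on top, above Pou2af1 (157), Ikzf1 (141), Spib (140) and Pax5 (77.6). In WT3 Pou2af1 (99.1 RPKM) and Spib (97.8 RPKM) led, followed by Ebf1 (69.96), Pax5 (46.0), Ikzf1 (41.6) and Bach2 (36.7). Foxo1 and Ikzf3 were lowest in every deep library.

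**Figure D2:**
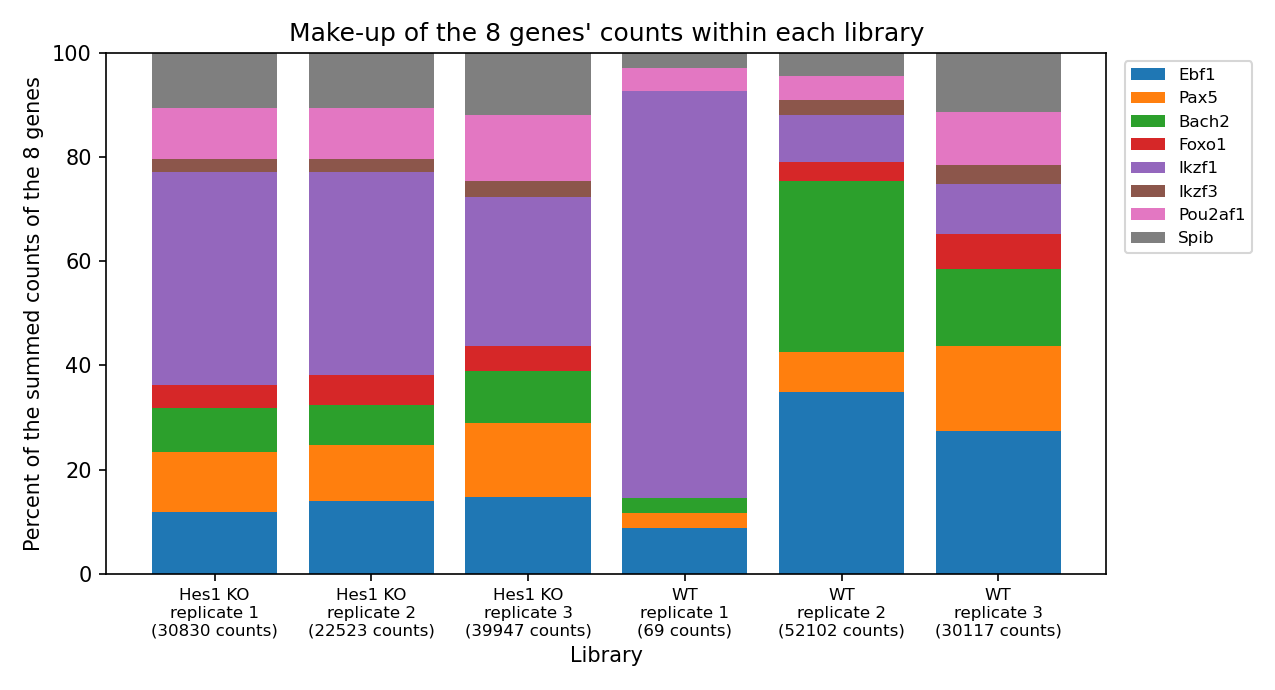
Share of each of the 8 genes in their summed counts, by library, with the summed count under each bar. Ikzf1 takes 28.6% to 40.9% in Hes1 KO, 9.08% and 9.66% in WT replicates 2 and 3, and 78.3% of 69 counts in WT replicate 1.

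As shares of the summed counts of the 8 genes, which no scaling between libraries can move, Ebf1 made up 11.9%, 13.9% and 14.8% in the knockouts and 34.9% and 27.4% in WT2 and WT3. Bach2 made up 8.48%, 7.78% and 10.0% in the knockouts and 32.8% and 14.7% in those WT libraries. The share of Ikzf1 went the other way, at 40.9%, 39.1% and 28.6% against 9.08% and 9.66%. Shares within a library are tied, so lower shares of some genes raise those of others. The log2 fold change of Ikzf1 itself was -0.40 by TMM without WT1. The shares of Foxo1 (4.41% to 5.64% against 3.62% and 6.71%), Pax5, Ikzf3, Pou2af1 and Spib overlapped between the groups. WT1 had 69 counts in all for the 8 genes, 54 of them of Ikzf1.

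Markers of B cells were then set beside these genes, since a bulk library cannot tell fewer B cells from less RNA per cell. The 10 pan-B markers, which include Cd79a of the B cell receptor, summed to 730, 839 and 1190 CPM in the knockouts and to 1385 and 1405 CPM in WT2 and WT3. All 10 had negative log2 fold changes without WT1 (median -1.37), and 2 of them fell. These were Ralgps2 by 1.62 and Fcrla by 1.81 (log2, edgeR, BH-adjusted p = 0.03002 and 0.0458). With library totals as the scale 6 of the 10 were negative and the median was -0.47. Cd37, a tetraspanin on this list, had a log2 fold change of -0.58 by TMM and of 0.17 by library totals. WT1 had 12 pan-B counts (181 CPM), with 7 of the 10 markers at 0.

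Read against B cell transcripts, the genes differed in whether the groups stayed apart. Per 1000 counts of the pan-B markers, Ebf1 had 226, 177 and 242 counts in the knockouts and 2261 and 486 in WT2 and WT3, and Bach2 had 162, 98.7 and 164 against 2122 and 260. Pax5 (219, 136 and 230 against 496 and 290), Foxo1 (84.2, 71.5 and 78.6 against 234 and 119) and Ikzf3 (50.01, 30.01 and 48.9 against 194 and 65.8) also kept the groups apart. Thus 5 of the 8 genes had every Hes1 KO library below both WT libraries on this measure, as had 3.6% of all tested genes. Pou2af1 (187, 125 and 209 against 288 and 180) and Spib (200.2, 133 and 193 against 291 and 199.7) overlapped between the groups, Spib only narrowly. Ikzf1, which other blood cells also make, overlapped too, with 780, 496 and 467 against 588 and 171. The pan-B markers did not move alike, as 6 had negative and 4 positive log2 fold changes by library totals. Among the 4 were Cd37 (0.17) and Ly6d (0.83), which took a larger part of the pan-B counts in the knockouts than in WT2 and WT3. That lowers this measure in the knockouts, and it was not repeated without them.

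In a fit scaled by the pan-B counts, chosen after the data were seen, 1 of the 8 genes fell, as did 2.42% of all genes, and the median of all genes moved to 1.09. Bach2 fell by 3.07 (log2, SE 0.97, edgeR, BH-adjusted p = 0.0372). Ebf1 had a log2 fold change of -2.67 (SE 0.96, edgeR, BH-adjusted p = 0.0599) and missed the threshold. The values of Ikzf3, Foxo1 and Pax5 were -1.59, -1.18 and -1.01, those of Spib and Pou2af1 were -0.48 and -0.43, and Ikzf1 turned positive at 0.61.

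**Figure D3:**
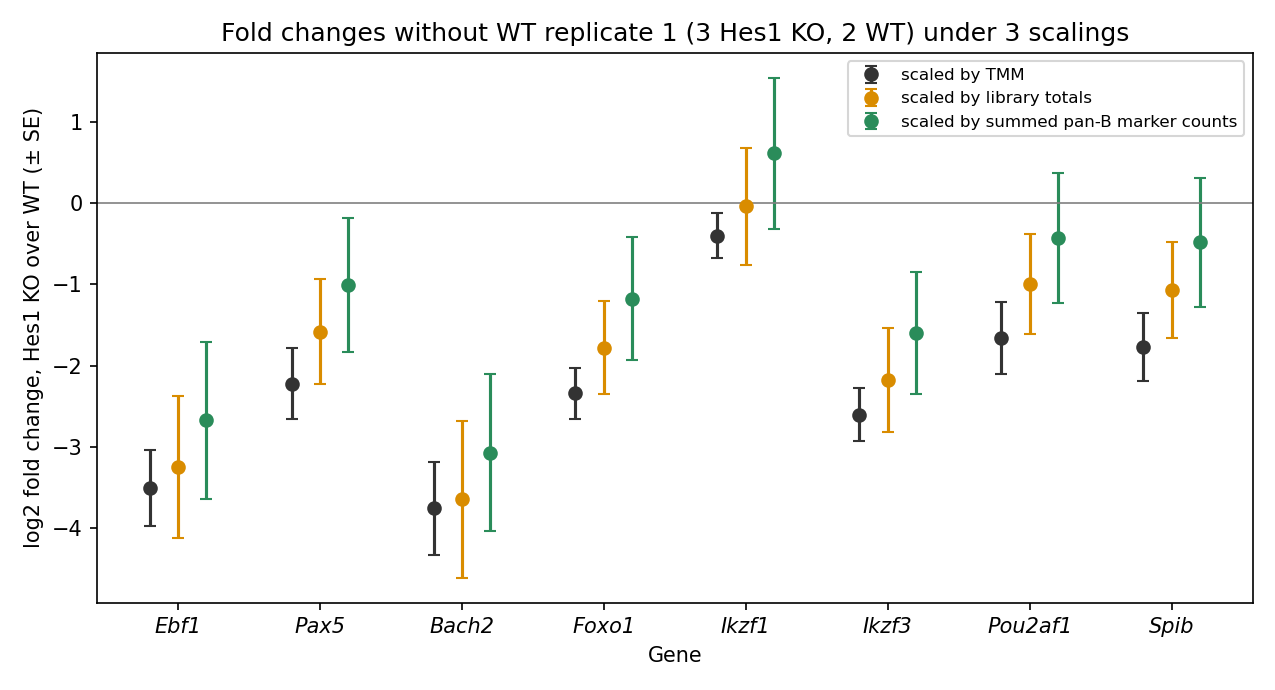
Log2 fold change of Hes1 KO over WT for each gene without WT replicate 1 (3 Hes1 KO and 2 WT libraries), with SE, scaled by TMM, by library totals and by the summed pan-B marker counts. All 8 are below 0 by TMM and by library totals, and Ikzf1 is above 0 when scaled by pan-B counts.

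Among the 8 genes, those with the longest spans had the largest excess in WT2. Ebf1 spans 390.0 kb and Bach2 348 kb (RefSeq, GRCm38.p6), and their CPM in WT2 were 15.6 and 22.3 times the Hes1 KO mean. Pax5 spans 186 kb and was 3.76 times that mean, Ikzf3, Foxo1 and Ikzf1 span 81.4 to 88.0 kb and were 6.72, 4.52 and 1.58 times, and Pou2af1 (26.4 kb) and Spib (6.09 kb) were 2.44 and 2.48 times. In WT3 the 8 ratios ran from 0.467 (Ikzf1) to 3.40 (Ebf1). All these ratios use library totals, and erythroid markers took 425259 CPM of WT3. After TMM scaling Ebf1 was at 2301 and 1537 CPM in WT2 and WT3, against 131 to 233 CPM in the knockouts. Bach2 was at 2160 and 822 CPM on that scale, against 78.6 to 158 CPM. Pax5, Foxo1, Ikzf3, Pou2af1 and Spib were then higher in WT3 than in WT2. WT2 had 17.1% of its protein-coding counts in genes over 100 kb, against 6.46% to 10.8% in the other 5 libraries. In WT3 the counts behind that share include the erythroid markers. Of protein-coding genes tested without WT1, 3.7% of those under 30 kb fell, 7.97% of those of 30 to 100 kb, 13.8% of those of 100 to 300 kb and 26.2% of the 256 longer ones. Long genes thus fell more often in this comparison, and the part of gene span in the results was not tested. Against WT3 alone, the library with the lowest share of long genes, Ebf1 fell by 3.19 (log2, SE 0.37) and Bach2 by 2.90 (log2, SE 0.39, edgeR, BH-adjusted p = 0.00444 and 0.0062), and 7 of the 8 genes passed, as did 14.3% of all genes in that direction. Against WT2 alone, Ebf1 fell by 3.74 and Bach2 by 4.27, and 6 of the 8 passed, as did 18.4% of all genes. Each of these fits assumes that its lone WT library varies like the knockouts. The Wilson interval of WT1 puts Ebf1 at no more than 198 CPM, under the 683 CPM of WT3.

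**Figure D4:**
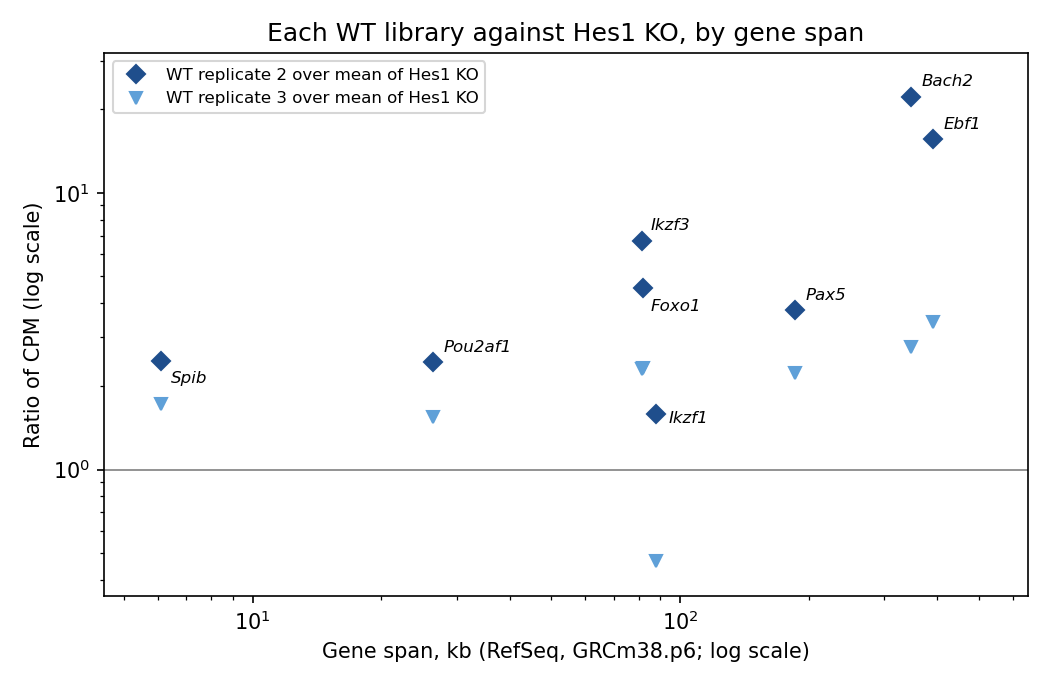
CPM of each gene in WT replicate 2 and in WT replicate 3 as a ratio to the mean of the 3 Hes1 KO libraries, against the gene's span, both axes on a log scale. Bach2 and Ebf1, the longest genes, have ratios of 22.3 and 15.6 in WT replicate 2 and 2.77 and 3.40 in WT replicate 3. The ratios use CPM of library totals, without TMM scaling.

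The targets of these factors were followed through 2 lists. Of 20 genes known as Ebf1 or Pax5 targets, 4 fell and none rose without WT1, and 19 had negative log2 fold changes (median -1.52). Those that fell were Blnk, the adaptor of the pre-B receptor, by 2.39, Id3, an inhibitor of E proteins, by 2.03, Cplx2, a complexin, by 2.20 and Fcrla by 1.81 (log2, edgeR, BH-adjusted p = 0.03002, 0.03002, 0.0369 and 0.0458). Blnk was at 71.3, 77.0 and 122 CPM in the knockouts and at 429 and 214 CPM in WT2 and WT3. Of 11 tested genes known as Foxo1 targets in lymphocytes 5 fell and 1 rose. Rag1, which cuts immunoglobulin genes for recombination, fell by 3.12 (log2, SE 0.44, edgeR, BH-adjusted p = 0.03002), from 659 and 452 CPM in WT2 and WT3 to 94.0, 71.5 and 145 CPM in Hes1 KO. S1pr1, a receptor for exit to the blood, fell by 2.26 and Pik3ip1, an inhibitor of PI3 kinase, by 1.41 (log2, edgeR, BH-adjusted p = 0.03002 for each). Of 10 pro-B and pre-B markers 3 fell, Rag1, Erg by 1.58 and Il7r, the interleukin-7 receptor, by 1.61 (log2, edgeR, BH-adjusted p = 0.03002, 0.0354 and 0.0391). No gene of these 3 lists passed with library totals, with the pan-B scale or with all 6 libraries. On the pan-B scale the medians moved to -0.06 for the Ebf1 and Pax5 targets, -0.36 for the Foxo1 targets and -0.20 for the pro-B and pre-B markers.

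Other regulators of the lineage moved less evenly. Of 24 such genes 9 fell and 1 rose without WT1, with 19 negative log2 fold changes, and on the pan-B scale 12 of the 24 were negative and none passed. Irf4, which acts in pre-B and plasma cells, fell by 2.63, Lef1 of early lymphocytes by 2.51, Tcf12, which encodes the E protein HEB, by 1.25 and Prdm1, the plasma cell repressor that Bach2 opposes, by 1.76 (log2, edgeR, BH-adjusted p = 0.03002, 0.0294, 0.0338 and 0.0312). Irf4 was at 84.6, 62.4 and 149 CPM in the knockouts and at 830.4 and 182 CPM in WT2 and WT3. Among 8 tested relatives of the 8 genes, 1 fell and 1 rose. Pou2f1, an octamer factor that works with OBF-1, fell by 2.21, and Spi1, which encodes PU.1 and is abundant in myeloid cells, rose by 2.004 (log2, edgeR, BH-adjusted p = 0.0391 and 0.0311). Ebf2 and Ebf3, the relatives of Ebf1 known in stromal cells, had at most 1 and 13 counts in any library.

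Markers of other cells that make some of these factors were also measured, as summed CPM of library totals. Erythroid markers took 425259 CPM of that total in WT3. Plasmacytoid dendritic cell markers, whose cells make Spib, summed to 1879, 1120 and 1521 CPM in the knockouts and to 837 and 506 CPM in WT2 and WT3. By TMM 9 of these 10 markers had positive log2 fold changes without WT1 (median 1.02). In WT1 they summed to 4610 CPM, above every other library, with 3068 CPM from Irf8 and 4 of the 10 markers at 0. Without WT1, 1 of the 10 (Il3ra) rose by 1.14 (log2, edgeR, BH-adjusted p = 0.0399). T cell markers summed to 48.1 to 58.1 CPM in the knockouts and to 32.2 and 26.9 CPM in WT2 and WT3. Of 9 tested, 6 had positive and 3 negative log2 fold changes by TMM, and 0 passed. Of the 10 plasma cell markers 3 fell (Slamf7 by 1.95, Irf4 and Prdm1) and 2 rose, the secretory factor Xbp1 by 1.22 (log2, edgeR, BH-adjusted p = 0.0294 for Slamf7 and 0.0393 for Xbp1) and Tnfrsf17, which had 7 to 11 counts in each Hes1 KO library and 0 in WT. Neutrophil markers summed to 46378, 124627 and 56313 CPM in the knockouts and to 14218 and 338 CPM in WT2 and WT3, with 1 of 10, Cxcr2, rising by 3.15 (log2). Macrophage and monocyte markers summed to 10960 to 20717 CPM against 2228 and 215 CPM, with 6 of 10 rising. Among these were Fcgr1 by 6.07, Cd68 by 2.46, Ms4a6c by 2.60 and Mpeg1 by 2.29 (log2, edgeR, BH-adjusted p at most 0.033 for these 4 and Cxcr2). WT1 had 9536 CPM of the neutrophil and 6242 CPM of the macrophage and monocyte markers, below every knockout and, for the latter, above WT2 and WT3. The part of myeloid transcripts in the results was not tested.

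Likeness between profiles was measured as the root mean square difference of log2 TMM-scaled CPM, centred on each gene's mean, over the 5 deep libraries and 12159 other genes, as a description with no test. Pou2af1 and Spib were the closest pair among the 8 genes (0.09), and Bach2 and Ikzf1 the farthest (1.67). Pax5 was most like Cplx2 (0.06) and Ildr1 (0.08), and Foxo1 most like Blnk (0.07) and Tmem131l (0.09). Pou2af1 and Spib were both nearest to Ccdc9b (0.08 and 0.06), and each had the other as next nearest. Ikzf3 was nearest to Mybpc2 and Gpam (0.09 each), and Ikzf1 to Ccnj and Eps15l1 (0.04 each). Ebf1 and Bach2 had only distant neighbours with low counts, Pcdhgb8 (0.17) and Mir1a-1hg (0.20) for Ebf1 and Pcdhga9 (0.11) and Crybb3 (0.18) for Bach2. Pcdhgb8 and Pcdhga9 share exons within a gene cluster, so their counts are uncertain.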

How the data were processed

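The authors deposited raw read counts per gene symbol, named there as featureCounts output, from polyA-selected stranded libraries per the labels' protocols. The submitters' processing notes name GRCm39, edgeR and limma. No source used here names the aligner, annotation, strand setting or versions.

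Groups and replicate numbers came from the sample titles. Counts were fitted over the whole table with edgeR 4.0.16 in R 4.3.3 (filterByExpr, TMM, quasi-likelihood F test with the legacy option off, Benjamini-Hochberg adjustment, threshold 0.05), with all 6 libraries and without WT replicate 1. SE is the absolute log2 fold change over the root of F. DESeq2 1.42.0 and limma-voom (limma 3.58.1) were alternatives, as were other scalings and filters, a replicate block and leaving out each library. The members, lists and tests were chosen with earlier results of these data known. Besides the 8 members, Hes1 and Bach2os, names follow a rule: up to 4 passing genes of a list by smallest p (otherwise the 2 smallest p), the 2 most abundant markers, and the 2 nearest profiles with a mean of at least 1 CPM. Cd79a, Ly6d, Prrx1, Ebf2, Ebf3, Tnfrsf17, Ddx3y, Xist and Dntt were named after their values were seen. Scripts were first tested on simulated data. RefSeq gave spans for 96.7% of genes by symbol. Intervals cover counting error only. Some genes that this rule picks are not reported here.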

Additional observations from a re-analysis of the deposited data

How the results depend on the processing

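Over all alternatives of the 8 fold changes, 71 of 112 values without WT replicate 1 kept their direction and side of the threshold, 38 kept the direction but lost the call, 2 gained a call and 1 changed sign. With all 6 libraries 104 of 112 stayed on their side, 8 gained a call and none changed sign. Without WT replicate 1, library totals gave 0 of the 8 and 0 of all genes called. The replicate block also gave 0 of the 8 and 0 of all genes, with Ebf1 at -3.38 (edgeR, BH-adjusted p = 0.273). Same-numbered libraries correlated at 0.153, 0.00704 and 0.244, and differently numbered ones at -0.197 to 0.0328. Whether the numbers pair libraries was not settled, and the main fits had no block. The pan-B scale, chosen after the data were seen, gave 1 of the 8 called and turned Ikzf1 to 0.61, with 2.42% of genes lower and 1292 genes higher, against 8.09% and 1204 by TMM. DESeq2 called 7 of the 8 and 4827 of 26972 genes (2713 lower), and limma-voom 5 of the 8 and 1440 of 16190 genes (737 lower). Leaving out 1 library gave 0 to 7 of the 8 and 0 to 6210 genes, with each 0 from leaving out a knockout. With all 6 libraries DESeq2 called 2 of the 8 and 832 of 26740 genes (618 lower). Leaving out 1 of the 6 libraries gave 0 to 6 of the 8 and 0 to 2513 genes, the highest values without WT replicate 1. The cause was not tested. The depth of WT replicate 1 allows up to 45.3 CPM for a count of 0 (3 counts), within the range of Ikzf3 in the knockouts.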

Other observations

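In WT replicate 1, markers of early and dendritic cells did not go one way. Irf8, a factor of dendritic and monocyte progenitors and of B cells, had 203 counts there, or 3068 CPM, against 269 and 161 CPM in the other WT libraries and 519 to 870 CPM in the knockouts. Cd93, a marker of early B and stem cells, had 62 counts, or 937 CPM, against 655 and 190.02 CPM in the other WT libraries and 172 to 359 CPM in the knockouts. Both were picked after their values were seen. By contrast, 4 of the 10 plasmacytoid dendritic cell markers and 5 of the 10 pro-B and pre-B markers had 0 counts in WT replicate 1. Among the latter, Dntt, the polymerase that adds bases at immunoglobulin joints, was at 170.5 to 226 CPM in the knockouts.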
